A study of Mus musculus with 8 samples.

Results

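The renin-angiotensin system was described in mouse endometrial tumors through 9 genes, taken by symbol from the count table: Agt, Ren1, Atp6ap2, Ace, Enpep, Anpep, Agtr1a, Agtr1b and Agtr2. The table holds 24419 gene symbols, of which 15875 had enough reads to be tested. Agt was put on the list because its levels were higher in TPMPik3ca and TPMPik3r1 than in TPM, so its values below are a description with no test. The other 8 genes stand for the remaining steps of the pathway, and 6 of them were tested.

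The study built tumors from uterus organoids of CAG-Cas9-EGFP mice, edited by viral transduction and placed in the uterus of nude mice, which lack mature T cells. TPM organoids carried edits that include an sgRNA against Trp53, together with Myc overexpression. TPMPik3ca organoids had, in addition, a mutant Pik3ca cDNA delivered by a retrovirus, and TPMPik3r1 organoids had an added sgRNA against Pik3r1. Pik3ca and Pik3r1 encode the catalytic and regulatory subunits of the growth kinase PI3K, and these models are called the PI3K models below. TPK organoids had edits that include the Trp53 sgRNA, and no Myc was introduced. All 4 models therefore shared the Trp53 sgRNA, the Cas9 and EGFP transgenes and the nude host. The organoid donors were females of 8 to 10 weeks and the recipients BALB/cA-nu females of 8 weeks. Each model had 2 libraries, which come from separate mice by the paper's figure legends, so the p-values below measure the spread between mice. Whether the mice of a model received separately edited organoids is not given, so spread between separate edits may not be covered. The labels call the samples tumor organoids, whereas the methods describe tumor tissue collected some months after transplantation, in which host cells may remain.

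Angiotensinogen, the product of Agt, is the only known precursor of the angiotensin peptides. Renin cuts angiotensin I from it, angiotensin-converting enzyme turns this into angiotensin II, and aminopeptidases A and N shorten angiotensin II to angiotensins III and IV. Angiotensin II acts through the type 1 receptor, which contracts vessels and promotes growth, and through the type 2 receptor, which often opposes these actions and is abundant in fetal tissue. Liver is the main source of circulating angiotensinogen and kidney of renin, but the uterus and its decidua also contain a local system.

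Total counts per library lay between 15748396 and 26943611, and 3 counts, used as a detection floor, corresponded to 0.116 to 0.198 CPM, that is, reads of a gene scaled to a common library size. The replicates of TPMPik3r1 differed more than those of any other model, with 2012 genes more than 4-fold apart against 464 to 792 elsewhere. Epithelial keratins and adhesion genes, which define the labelled tumor type, summed to between 2941 and 5498 CPM in TPM and TPK but to only 6.47 to 73.3 CPM in TPMPik3ca and TPMPik3r1. Keratin 7 (Krt7) was at 567 to 1991 CPM in TPM and TPK and at 1.32 to 4.50 CPM in the other models, so defining epithelial markers were nearly absent from the latter. In bulk RNA of this kind, fewer cells of a type and less RNA per cell cannot be told apart.

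Promoter sequences of the 3 genes on which the results turn are given first, so that their starts can be compared. RefSeq promoters were found for 8 of the 9 members. The stretches shown end at the transcription start by RefSeq for Agt and Atp6ap2, and before the annotated gene for Agtr2. Capitals mark matches, on either strand, to TATAAA (the TATA box), AGAACA (a core bound by glucocorticoid and related receptors), AGGTCA (a core bound by other nuclear receptors) or AGATAA (bound by GATA factors), and no matches overlapped.
Agt, chr8:124569707-124569956, minus strand: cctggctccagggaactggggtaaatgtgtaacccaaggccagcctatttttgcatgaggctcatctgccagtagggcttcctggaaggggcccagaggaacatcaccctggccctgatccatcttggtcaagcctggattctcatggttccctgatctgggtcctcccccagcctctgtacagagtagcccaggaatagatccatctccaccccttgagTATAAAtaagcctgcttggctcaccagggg
Agtr2, chrX:21484374-21484543, plus strand: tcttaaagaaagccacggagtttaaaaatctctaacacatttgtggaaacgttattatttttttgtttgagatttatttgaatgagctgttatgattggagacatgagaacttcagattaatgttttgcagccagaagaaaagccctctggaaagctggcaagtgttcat
Atp6ap2, chrX:12587509-12587758, plus strand: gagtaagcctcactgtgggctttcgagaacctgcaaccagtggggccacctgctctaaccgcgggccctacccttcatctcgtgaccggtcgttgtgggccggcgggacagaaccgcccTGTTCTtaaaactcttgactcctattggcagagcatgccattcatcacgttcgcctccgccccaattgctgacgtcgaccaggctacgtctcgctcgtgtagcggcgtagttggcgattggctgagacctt
All positions are on GRCm38.p6. The Agt stretch held a TATA box whose first base lay 30 bases before the start, a motif found in 12.4% of all promoter stretches of 250 bases. It contained no CpG dinucleotide and 55.6% G and C bases. The Atp6ap2 stretch held no TATA box but 20 CpG dinucleotides, and its single match was to AGAACA on the opposite strand, a motif present in 16.1% of promoters. The Agtr2 stretch of 170 bases was rich in A and T, with 34.7% G and C bases and 2 CpG dinucleotides, and held none of the motifs searched. Such matches describe letters and were not tested as binding sites.

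Agt (ENSMUSG00000031980, chr8:124556534-124569706 on GRCm38, a protein-coding gene with 1891 bases of exon) was scarce in TPM and TPK and abundant in the PI3K models. Its level was 1.38 and 0.801 CPM in the TPM libraries, and 1.31 and 0.198 CPM in the TPK libraries, the last from only 3 reads. TPMPik3ca had 88.6 and 58.8 CPM, and TPMPik3r1 had 3969 and 199 CPM. All 4 libraries of the PI3K models were thus far above all 4 of the others, the pattern for which the gene was chosen, and the TPM and TPK libraries overlapped.

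The mean level of Agt was 73.7 ± 21.1 CPM in TPMPik3ca (SD, n = 2) and 2084 ± 2665 CPM in TPMPik3r1 (SD, n = 2), against 1.09 ± 0.413 in TPM (SD, n = 2) and 0.756 ± 0.79 in TPK (SD, n = 2). The ratio of means to TPM was 67.4 for TPMPik3ca and 1907 for TPMPik3r1. The TPMPik3r1 replicates stood 19.9-fold apart, so the second ratio rests largely on replicate 1. In the order of means, TPMPik3r1 came before TPMPik3ca, TPM and TPK, and the libraries of TPMPik3r1 and TPMPik3ca did not overlap. Scaled by exon length, the level of Agt ranked 5th among all genes in TPMPik3r1 replicate 1 and 364th in replicate 2. It ranked 1048th and 1557th in TPMPik3ca, and between 12480th and 14887th in TPM and TPK.

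**Figure D1:**
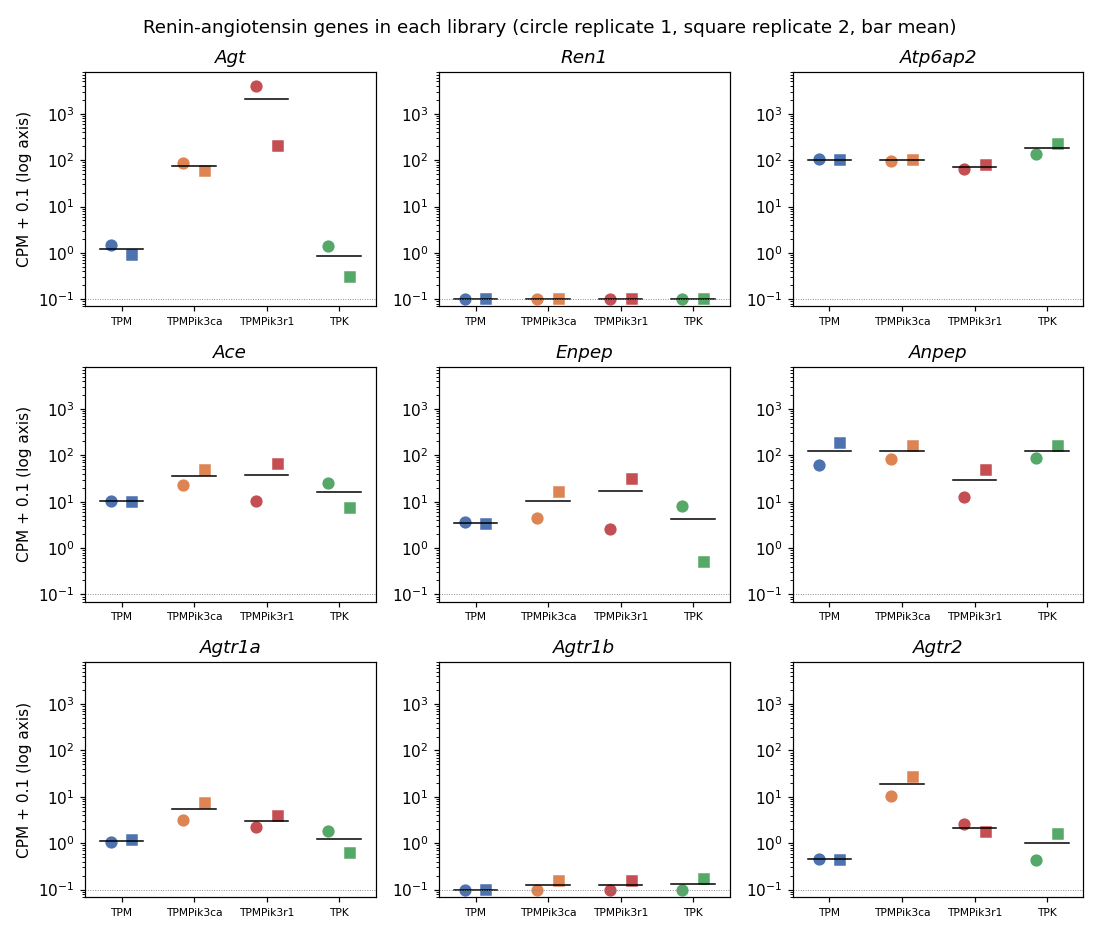
Level of each of the 9 genes in each library, as CPM + 0.1 on a log axis, with circles for replicate 1, squares for replicate 2 and a bar for the mean of the model. Agt reaches 3969 CPM in TPMPik3r1 replicate 1 and stays below 1.39 CPM in TPM and TPK, Agtr2 is highest in TPMPik3ca, and Ren1 lies on the dotted line that marks 0.

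Markers of other cells were set beside the Agt levels. Of 8 genes that mark steroid-producing cells of the gonads and adrenal gland, the summed level was 5044 CPM in TPMPik3r1 replicate 1 and 391 CPM in replicate 2, against 6.86 to 22.4 CPM in the other models. Cyp11a1, the enzyme that starts steroid synthesis from cholesterol, was at 3768 and 182 CPM in these TPMPik3r1 libraries and at 8.46 CPM or less elsewhere. Nr5a1, the factor that specifies steroidogenic cells, was at 753 and 148 CPM there and at 5.23 CPM or less elsewhere. Steroid markers were therefore high in the TPMPik3r1 libraries in the same order as Agt, whereas the aromatase gene Cyp19a1 was at 0.127 CPM or less, and Fshr at 0, in every library. In TPMPik3ca the summed steroid markers were at 9.75 and 22.4 CPM, beside 6.86 to 22.4 CPM in TPM and TPK, while Agt was at 88.6 and 58.8 CPM. Of the leading markers, Nr5a1 was at 0.507 and 5.23 CPM in TPMPik3ca, against 0.4 CPM or less in TPM and TPK. Cyp11a1 was at 0.76 and 8.46 CPM in TPMPik3ca, against 3.79 CPM or less in TPM and TPK. Its value in TPMPik3ca replicate 1 thus lay within the range of TPM and TPK, and only replicate 2 lay above it. The part of such cells in the Agt level of the PI3K models was not tested.

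Hepatocyte markers, 7 genes of the main cells that make circulating angiotensinogen, summed to 9.66 CPM or less in every library, with transthyretin (Ttr) at 0 throughout. Serpina1c, the most abundant of them, was at 3.54 CPM or less and Ahsg at 5.09 CPM or less, with the highest values of both in TPK replicate 1. The part of hepatocytes in the Agt level was not tested. The 6 adipocyte markers summed to 75.2 and 500.1 CPM in TPMPik3ca and to 189 and 1.52 CPM in TPK, with 9.99 CPM or less in TPM. In TPMPik3r1 they summed to 64.0 and 5.39 CPM. Cfd and Cidec, the leading adipocyte genes by mean over all libraries, were at 3.87 and 0.503 CPM or less there. Most of both TPMPik3r1 sums therefore came from other genes of the list. The part of adipocytes in the Agt level was not tested. Endothelial markers summed to 435 and 568 CPM in TPMPik3ca and to 176 and 681 CPM in TPMPik3r1, against 140 and 129 CPM in TPM and 189 and 65.3 CPM in TPK. Those of TPMPik3ca were above TPM and TPK, and those of TPMPik3r1 were above TPM and overlapped TPK. The part of endothelial cells in the Agt level was not tested.

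**Figure D2:**
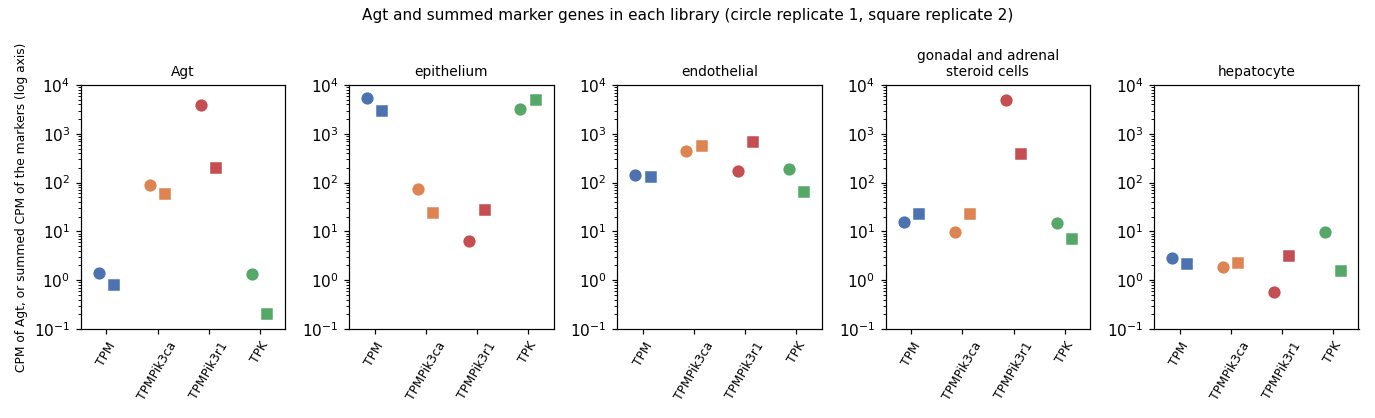
Level of Agt and summed level of 4 marker lists in each library, in CPM on log axes, with circles for replicate 1 and squares for replicate 2. Steroid markers stand out only in TPMPik3r1 (391 and 5044 CPM), epithelial markers fall below 73.4 CPM in both PI3K models, and hepatocyte markers stay below 9.67 CPM.

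Renin (Ren1), the enzyme that starts the cascade, had 0 counts in all 8 libraries. Given the floor, a level above 0.116 to 0.198 CPM would have been seen in a library, for the reads that the counting assigned to this symbol. Some laboratory mice carry a near-identical second renin gene, and reads shared with a copy can be lost in counting. Atp6v0c, a proton pump subunit that every cell uses, was likewise listed at 0.0633 CPM or less, so a value of 0 is given here only as listed.

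Atp6ap2, the (pro)renin receptor and an accessory subunit of the vacuolar proton pump, was the most evenly expressed member. Its levels were 103.1 and 103.0 CPM in TPM, 97.0 and 102 CPM in TPMPik3ca, and 65.3 and 78.0 CPM in TPMPik3r1, whereas TPK had 138 and 227 CPM. The TPK libraries were above every other library. Relative to the mean of TPMPik3ca and TPMPik3r1, the level in TPK was 2.13-fold higher (log2 fold change 1.11, SE 0.243, 95% interval 0.53 to 1.69, adjusted p = 0.0296 by edgeR's quasi-likelihood test with Benjamini-Hochberg adjustment over all tested genes). Of all genes tested, 14.4% passed in this comparison, and 10.3% were higher in TPK. Relative to TPM, the difference was 0.82 on the log2 scale (95% interval 0.13 to 1.52) and did not pass (edgeR adjusted p = 0.678).

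The Atp6ap2 call was a narrow one. It was kept in 3 of 8 fits that left out a library and lost without TPK replicate 2 (log2 fold change 0.71, edgeR adjusted p = 0.233) and without either replicate of TPM or TPMPik3ca (edgeR adjusted p between 0.0685 and 0.0887). It was also lost when library size alone was used for scaling (edgeR adjusted p = 0.059) and when TPM was left out of the fit (edgeR adjusted p = 0.0694). Between TPMPik3r1 and TPM the libraries of Atp6ap2 did not overlap, but the difference of -0.52 did not pass (95% interval -1.22 to 0.17, edgeR adjusted p = 0.335).

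Ace, which makes angiotensin II and breaks down bradykinin, was at 10.2 and 9.95 CPM in TPM and at 23.2 and 49.3 CPM in TPMPik3ca. TPMPik3r1 had 10.5 and 64.1 CPM, and TPK had 24.6 and 7.05 CPM. Both PI3K models lay above TPM, in replicate 1 of TPMPik3r1 by a small margin. The log2 fold changes against TPM were 1.85 for TPMPik3ca (95% interval -0.40 to 4.10, edgeR adjusted p = 0.298) and 1.89 for TPMPik3r1 (95% interval -0.37 to 4.14, edgeR adjusted p = 0.289), and neither passed. Somatic Ace is abundant on endothelium, and endothelial markers were lowest in TPK replicate 2 and highest in TPMPik3r1 replicate 2, the libraries with the lowest and highest Ace. The part of endothelial cells in the Ace level was not tested.

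Enpep, aminopeptidase A, converts angiotensin II to angiotensin III. It was at 3.49 and 3.26 CPM in TPM, 4.24 and 15.9 CPM in TPMPik3ca, 2.48 and 31.3 CPM in TPMPik3r1 and 8.06 and 0.396 CPM in TPK. Replicates of TPK and TPMPik3r1 were 20.4-fold and 12.7-fold apart, and both models spanned the TPM level. No comparison of Enpep passed, with edgeR adjusted p = 0.57 for TPMPik3ca and 0.429 for TPMPik3r1 against TPM.

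Anpep, aminopeptidase N (CD13), which trims angiotensin III to angiotensin IV and many other peptides, was abundant everywhere but least so in TPMPik3r1. TPM had 61.2 and 188 CPM, TPMPik3ca 84.6 and 158 CPM, TPK 88.0 and 157 CPM, and TPMPik3r1 12.4 and 47.3 CPM. Both TPMPik3r1 libraries lay below all others, while the other models overlapped one another. Against TPM the log2 fold change was -2.06 (SE 0.802, 95% interval -3.97 to -0.15, edgeR adjusted p = 0.187), and against TPMPik3ca it was -2.02 (SE 0.801, 95% interval -3.94 to -0.11, edgeR adjusted p = 0.414). These comparisons share the TPMPik3r1 libraries, and neither passed the adjusted threshold. Macrophages also carry Anpep, and their 7 markers summed to 274 and 836 CPM in TPMPik3r1, against 731 to 4539 CPM in the other models. The part of macrophages in the Anpep level was not tested.

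Agtr2 encodes the type 2 receptor (ENSMUSG00000068122, chrX:21484544-21489164, 3326 bases of exon). Among the members tested, which leave out Agt, it was the only one whose difference between TPMPik3ca and TPM passed. It had 10.3 and 26.6 CPM in TPMPik3ca, from 162 and 478 reads, and 0.361 and 0.343 CPM in TPM, from 6 reads in each library. TPMPik3r1 had 2.56 and 1.61 CPM, and TPK had 0.343 and 1.52 CPM. TPMPik3ca was above all other libraries, TPMPik3r1 was second, and TPM and TPK overlapped.

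Between TPMPik3ca and TPM, the Agtr2 level rose 52.3-fold in mean CPM (log2 fold change 5.68, SE 0.998, 95% interval 3.30 to 8.06, edgeR adjusted p = 0.0354). In this comparison 3.48% of all tested genes passed and 0.466% were higher in TPMPik3ca. The reads of Agtr2 in TPM were few, and the gene had enough reads for testing only through TPMPik3ca, TPMPik3r1 and 1 TPK library. The call was lost when any library of TPM, TPMPik3ca or TPK was left out, with log2 fold changes of 4.84 to 6.23 over all such fits. Without either TPM library the edgeR adjusted p was 0.191 or 0.221, without either TPMPik3ca library 0.0968 or 0.139, and without either TPK library 0.0506 or 0.0518, while leaving out a TPMPik3r1 library gave 0.0213 or 0.0214. In the fit without TPMPik3ca replicate 2, the highest library, the log2 fold change was 4.84.

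For TPMPik3r1 against TPM the log2 fold change of Agtr2 was 2.54 (SE 0.894, 95% interval 0.41 to 4.68, edgeR adjusted p = 0.153), and 5.58% of all genes passed in that comparison. Directly compared, TPMPik3r1 was lower than TPMPik3ca by a log2 fold change of -3.14 (SE 0.868, 95% interval -5.21 to -1.07), which did not pass (edgeR adjusted p = 0.376). No gene at all passed in that last comparison by edgeR (0%), although 1867 (11.8%) had an unadjusted p under 0.05 and DESeq2 called 797. These comparisons share the TPM and TPMPik3r1 libraries with one another.

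Agtr1a, the main type 1 receptor gene of the mouse, was scarce but ordered much like Agtr2. TPM had 0.963 and 1.09 CPM, TPMPik3ca 3.10 and 7.40 CPM, TPMPik3r1 2.09 and 3.84 CPM, and TPK 1.77 and 0.527 CPM. Both PI3K models were above TPM and TPK in every library. Against TPM the log2 fold change was 2.35 for TPMPik3ca (SE 0.855, 95% interval 0.31 to 4.39, edgeR adjusted p = 0.178) and 1.52 for TPMPik3r1 (SE 0.836, 95% interval -0.47 to 3.52, edgeR adjusted p = 0.332), and neither passed. Agtr1b, the second type 1 receptor gene of rodents, had a single read in TPK replicate 2, TPMPik3ca replicate 2 and TPMPik3r1 replicate 2 and none elsewhere, under the floor in all libraries. The 2 type 1 genes are close in sequence, so reads could have been lost or assigned between them.

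The balance of the receptors was read within libraries, per kilobase of exon. The ratio of Agtr2 to Agtr1a was 2.77 and 3.01 in TPMPik3ca and 0.314 and 0.265 in TPM. In TPMPik3r1 it was 1.02 and 0.352, and in TPK 0.162 and 2.41. Type 2 receptor RNA was thus above type 1 in both TPMPik3ca libraries and below it in both TPM libraries, and the replicates of the other models fell on different sides or near equality. In TPM and TPK these ratios rest on few reads of each gene.

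**Figure D3:**
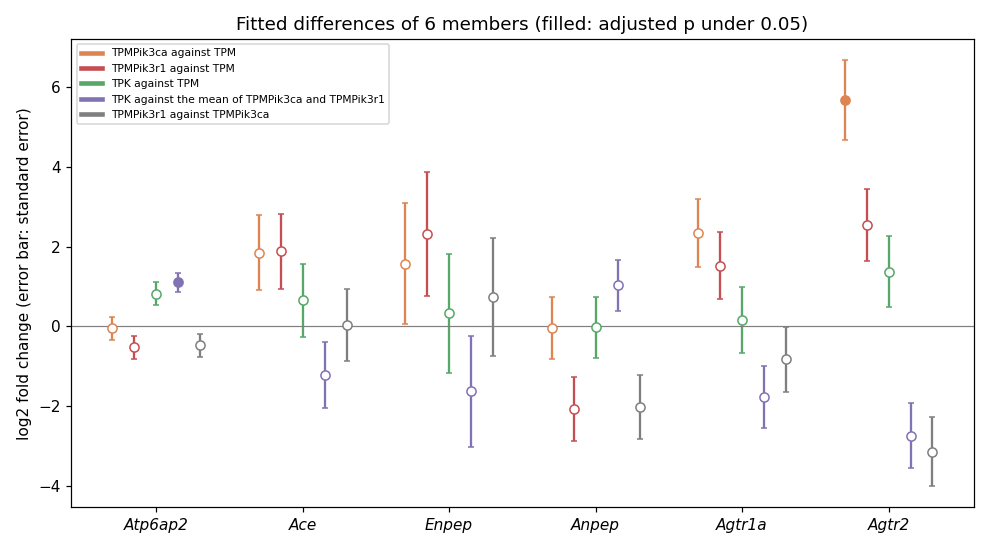
Log2 fold changes of the 6 tested members other than Agt in 5 comparisons, with standard errors as bars and filled points where the edgeR adjusted p is under 0.05. The 2 filled points are Agtr2 in TPMPik3ca against TPM (5.68) and Atp6ap2 in TPK against the mean of the PI3K models (1.11).

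The RNAs of substrate and processing enzymes also stood in different proportions. Per kilobase, Agt was at 0.225 to 0.381 times the Ace level in TPM and at 0.0784 to 0.15 times in TPK. In TPMPik3ca it was 10.7 and 3.34 times, and in TPMPik3r1 1061 and 8.70 times the Ace level. Agt RNA was therefore above Ace RNA in the PI3K models and below it in the others, while renin was listed at 0 in all of them. Agt was chosen for its higher level in the PI3K models, so this split is no independent result. Anpep exceeded Enpep per kilobase in all libraries, by 1.72-fold to 452-fold.

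Over the 6 tested members other than Agt, the number passing was 1 for TPMPik3ca against TPM (Agtr2, with 3.48% of all genes passing), 0 for TPMPik3r1 against TPM (5.58%), 0 for TPK against TPM, 1 for TPK against the PI3K models (Atp6ap2, 14.4%) and 0 for TPMPik3r1 against TPMPik3ca. In TPK against TPM, 0% of all genes passed by edgeR, 1138 (7.17%) had an unadjusted p under 0.05 and DESeq2 called 243. The median log2 fold change of the 6 genes was 1.71 for TPMPik3ca and 1.70 for TPMPik3r1 against TPM, beside -0.01 and 0.03 over all tested genes. It was 0.49 for TPK against TPM, -1.42 for TPK against the PI3K models and -0.65 for TPMPik3r1 against TPMPik3ca. Groups did not overlap for 5 of these 6 genes between TPMPik3ca and TPM, 4 of them higher, while 61.3% of all genes did not overlap there. For TPMPik3r1 against TPM they did not overlap for 5 of 6 (52.9% of all genes), for TPK against TPM for 1 (47.9%), for TPK against the PI3K models for 3 (40.8%) and for TPMPik3r1 against TPMPik3ca for 3 (36.5%). With so few genes, these counts and medians describe the members only. Agtr2 had enough reads for testing only through TPMPik3ca, TPMPik3r1 and 1 TPK library, so its call is no independent result.

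At the looser threshold named in the study's methods, which asks for a log2 fold change beyond 1 and p below 0.05 without adjustment, Agtr1a and Agtr2 passed between TPMPik3ca and TPM, where 18.9% of all genes did. Agtr2 (higher) and Anpep (lower) passed between TPMPik3r1 and TPM (20.1% of all genes), and no member between TPK and TPM (5.28%). Atp6ap2 (higher) and Agtr2 (lower) passed between TPK and the PI3K models (25.2%), and Agtr2 and Anpep, both lower, between TPMPik3r1 and TPMPik3ca (10.5%).

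Another 44 genes that surround the members were listed in 7 groups, of which 37 were tested. Between TPMPik3ca and TPM, 2 rose and 1 fell, where 3.48% of all tested genes passed, and between TPMPik3r1 and TPM, 2 rose and 2 fell (5.58% of all tested genes). None passed in TPK against TPM or in TPMPik3r1 against TPMPik3ca. Between TPK and the PI3K models 3 were higher in TPK and 3 lower, 6 of 37, which is near the 14.4% of all tested genes. The median log2 fold changes of the 37 were 0.07, -0.09, 0.25, -0.11 and 0.12 in that order, beside medians of -0.01 to 0.03 over all tested genes. Zbtb16 is in the counts of every comparison where genes passed, and Foxa2 in those of TPMPik3r1 against TPM and of TPK against the PI3K models. Both had enough reads for testing only through the groups where they were high, so their calls add no independent result to these counts.

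The receptor partners, 8 genes whose products bind or relay the angiotensin receptors, held both genes that rose in the PI3K models. Zbtb16 (PLZF), a transcription factor that binds the type 2 receptor and is also a known target of glucocorticoid and progesterone signalling, was at 0.241 and 0.515 CPM in TPM and 0.914 and 0.527 CPM in TPK. TPMPik3ca had 34.6 and 28.7 CPM, and TPMPik3r1 had 129 and 19.2 CPM. All PI3K libraries were above the others. With 4 and 9 reads in TPM and 16 and 8 in TPK, Zbtb16 had enough reads for testing only through the PI3K libraries, where it was high. It rose against TPM by log2 fold changes of 6.36 in TPMPik3ca (SE 1.06, edgeR adjusted p = 0.0307) and 7.59 in TPMPik3r1 (SE 1.11, edgeR adjusted p = 0.0181), and it was lower in TPK than in the PI3K models (-6.05, edgeR adjusted p = 0.0122).

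Rgs2, which damps signalling through the Gq proteins that the type 1 receptor uses, had 12.6 and 20.8 CPM in TPM and 24.2 and 31.8 CPM in TPK. It was at 63.3 and 122 CPM in TPMPik3ca and at 66.6 and 99.9 CPM in TPMPik3r1. The PI3K libraries were again the highest. Rgs2 rose by 2.47 (SE 0.453, edgeR adjusted p = 0.0393) and 2.32 (SE 0.45, edgeR adjusted p = 0.0363) on the log2 scale against TPM and was lower in TPK than in the PI3K models (-1.65, edgeR adjusted p = 0.0406). The Gq proteins themselves, Gnaq at 60.8 to 124 CPM and Gna11 at 64.5 to 166 CPM, did not pass in any comparison.

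The alternative peptide axis, with the enzymes and receptors that make or read angiotensin 1-7 and related peptides, had 8 genes listed here, 6 of them tested. Thop1, an endopeptidase that can make angiotensin 1-7 directly from angiotensin I, was at 63.2 and 50.3 CPM in TPK and at 139 to 192 CPM in the PI3K models. It was lower in TPK than in the latter by a log2 fold change of -1.55 (SE 0.332, edgeR adjusted p = 0.0276). The protease gene Ctsa was the most abundant of this group, at 185 to 451 CPM.

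Of the 3 other angiotensin aminopeptidases, Rnpep, aminopeptidase B, was at 300.0 and 204 CPM in TPK, 174 and 130 CPM in TPM, 18.5 and 66.8 CPM in TPMPik3ca and 40.9 and 22.9 CPM in TPMPik3r1. All PI3K libraries were lower than all others. It was higher in TPK than in the PI3K models by a log2 fold change of 2.77 (SE 0.506, edgeR adjusted p = 0.017), and against TPM the differences of -1.83 and -2.25 did not pass (edgeR adjusted p = 0.159 and 0.0961). Lnpep, which binds angiotensin IV and was named after its values were seen, was higher in all PI3K libraries than in the others, at 15.8 and 6.75 CPM in TPM, 16.7 and 26.9 CPM in TPK, 95.1 and 53.8 CPM in TPMPik3ca and 29.7 and 54.1 CPM in TPMPik3r1. Its log2 fold changes against TPM, 2.72 and 1.89, did not pass (edgeR adjusted p = 0.0592 and 0.109). Dpp3, which degrades angiotensin II, was at 72.8 to 164 CPM in all libraries and passed in none of the comparisons.

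The mineralocorticoid arm had 4 genes, 3 of them tested. Scnn1a, a subunit of the epithelial sodium channel that aldosterone increases, had 134 and 41.2 CPM in TPM and 58.5 and 77.8 CPM in TPK. TPMPik3ca had 1.52 and 2.23 CPM, and TPMPik3r1 2.90 and 0.834 CPM. Scnn1a fell in both PI3K models against TPM, by log2 fold changes of -5.54 (SE 0.851, edgeR adjusted p = 0.025) and -5.52 (SE 0.846, edgeR adjusted p = 0.0201), and was higher in TPK than in them (5.17, edgeR adjusted p = 0.00435). Scnn1a is an epithelial gene, and the epithelial marker sums given above moved with it; their part in its level was not tested. Hsd11b2, which shields the mineralocorticoid receptor from glucocorticoids, was at 9.21 and 3.26 CPM in TPM and 2.98 CPM or less elsewhere, and aldosterone synthase (Cyp11b2) was at 0.114 CPM or less throughout.

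Regulators of Agt transcription numbered 9, of which 7 were tested. Foxa2, a forkhead factor of liver and uterine glands, had 5.60 and 6.18 CPM in TPM, 7.83 and 41.8 CPM in TPK, 0.253 and 0.223 CPM in TPMPik3ca and 0 reads in both TPMPik3r1 libraries. There were 4 reads in each TPMPik3ca library. Foxa2 therefore had enough reads for testing only through TPM and TPK, where it was high. It fell in TPMPik3r1 against TPM, at least 41.6-fold when 3 counts per library are used as the floor (edgeR adjusted p = 0.0258). It was higher in TPK than in the PI3K models (edgeR adjusted p = 0.00432). Foxa2 marks gland epithelium in the uterus, and the epithelial marker sums given above moved with it; their part in its level was not tested. Cebpb at 146 to 610 CPM and Stat3 at 174 to 328 CPM, the most abundant regulators, did not pass in any comparison.

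None of 5 tested partners of Atp6ap2 in the vacuolar proton pump passed, and their medians were between -0.36 and 0.52 on the log2 scale over the comparisons. Atp6v1a was at 136 to 385 CPM and Atp6v1b2 at 114 to 215 CPM. Of 6 other proteases that can cut angiotensinogen or angiotensin I, 5 were tested and none passed. Cathepsin D (Ctsd), an acid protease related to renin, was at 703 to 3082 CPM in all libraries. Tissue kallikrein (Klk1) was at 317 CPM in TPMPik3r1 replicate 1, at 60.5 CPM in TPM replicate 1 and at 4.35 CPM or less in the others, so its replicates did not hold together.

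Zbtb16 and Foxa2 were tested through the groups where they were high, and the fits below do not lift that limit. Calls of these surrounding genes also depended on single libraries, given that each model had 2. Those of Foxa2 and Scnn1a in TPK against the PI3K models were kept in 8 of 8 fits that left out a library, with an edgeR adjusted p of 0.0326 and 0.0328 or less. Zbtb16 in TPMPik3r1 against TPM was lost without either TPM library (highest edgeR adjusted p 0.122), and Rnpep and Zbtb16 in TPK against the PI3K models without either TPK library (highest 0.0958 and 0.119). In TPMPik3ca against TPM, the calls of Rgs2 and Zbtb16 were lost without any library of TPM, TPMPik3ca or TPK, and that of Scnn1a without any of these but TPM replicate 2, with an edgeR adjusted p of up to 0.234, 0.197 and 0.158. In TPMPik3r1 against TPM, that of Rgs2 was lost without any TPM or TPK library (up to 0.227), that of Scnn1a without either TPK library or TPM replicate 1 (up to 0.0761), and that of Foxa2 without any TPM or TPMPik3ca library or TPMPik3r1 replicate 1 (up to 0.101). In TPK against the PI3K models, Thop1 was lost without any TPK or TPMPik3ca library (up to 0.211), and Rgs2 without any TPK or TPM library or TPMPik3ca replicate 2 (up to 0.205). Fits of only the models compared also ended calls: in TPMPik3r1 against TPM those of Foxa2, Scnn1a, Zbtb16 and Rgs2 (edgeR adjusted p = 0.0898, 0.112, 0.105 and 0.107), and in TPK against the PI3K models that of Rgs2 (0.0613). With library size alone, Rgs2 was lost in TPMPik3ca and TPMPik3r1 against TPM and in TPK against the PI3K models (0.0565, 0.053 and 0.0508). No direction changed in these fits.

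**Figure D4:**
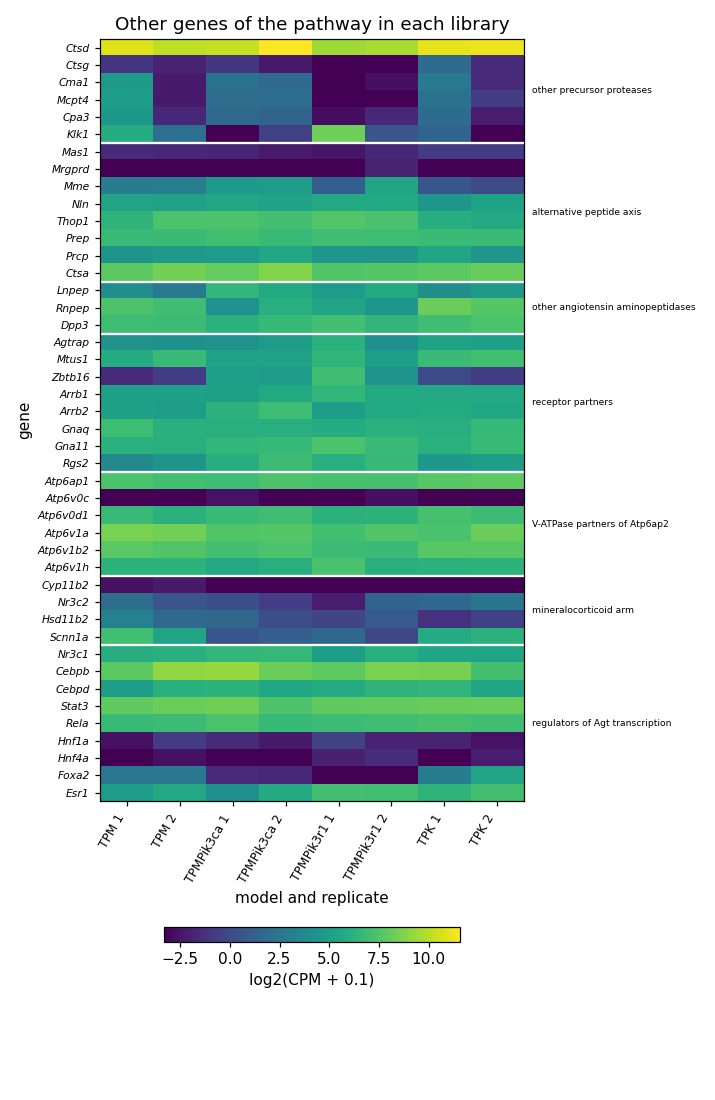
Level of 44 other genes of the pathway in each library, as log2(CPM + 0.1) by color, with rows grouped by role and columns by model and replicate. Zbtb16 and Rgs2 are brighter in the TPMPik3ca and TPMPik3r1 columns, Scnn1a and Foxa2 are brighter in TPM and TPK, and Ctsd is bright throughout.

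Genes whose levels followed Agt most closely over the 8 libraries were found by Pearson's r of log2 CPM, among 10419 genes with a mean log2 CPM of at least 3. They were Eva1b (r = 0.995), Gkap1 (r = 0.993), Itpkb (r = 0.989), Abat (r = 0.985), Ctnnal1 (r = 0.981) and Hdgfrp2 (r = 0.979). As a background, 250 genes, or 2.4% of those compared, had an r of at least 0.9, and the 8 points form a low group of TPM and TPK and a high group of PI3K libraries, so r describes mainly this split. Without TPMPik3r1 replicate 1 the 6 values were 0.962 to 0.992. Abat, the enzyme that breaks down GABA, was at 128 CPM in TPMPik3r1 replicate 1 and at 2.18 to 37.6 CPM elsewhere. Itpkb, an inositol trisphosphate kinase, ranged less, from 26.8 to 138 CPM. The 6 named genes thus moved over a much smaller range than Agt itself. The required mean level leaves out genes that are low in most libraries, and the ranges of the other genes are not described.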

How the data were processed

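RNA from 8 libraries was analyzed, 2 for each of 4 models, and groups and replicate numbers were taken from the sample titles. The TPM values come from columns headed TPMS, matched to the TPM titles by the shared start of the name, and the meaning of the S is not given. The counts per gene symbol were deposited by the authors. Their reads had been trimmed by a company before alignment with STAR to mm10. The counter is not given in the sources used here, and 25 symbols had been turned into dates. A second deposited table of signal values holds the same counts divided by a size factor, as DESeq2 does, and was used only for that check.

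Counts were scaled by TMM and filtered with filterByExpr in edgeR 4.0.16 (R 4.3.3, limma 3.58.1). This left 15875 genes, fitted as 1 quasi-likelihood model over all 8 libraries (common dispersion 0.269) with Benjamini-Hochberg adjustment over all tested genes and a threshold of 0.05. The 5 comparisons were TPMPik3ca, TPMPik3r1 and TPK against TPM, TPK against the mean of TPMPik3ca and TPMPik3r1, and TPMPik3r1 against TPMPik3ca, and they share libraries. CPM values use the TMM library sizes, and log2 CPM uses a prior count of 2. Intervals cover 95%. Exon lengths and positions came from GENCODE M21, which matched 95.5% of symbols, and promoters from RefSeq (GRCm38.p6). The script was tested on simulated data. With 2 libraries per model, replicate numbers did not pair the samples.

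The members and lists were chosen with earlier results of these data known, and the promoter motifs were chosen after the values had been seen. Members were named with all libraries. Of 44 pathway genes in 7 groups, those that passed in any comparison and the 2 most abundant of each group were named, and likewise the 2 most abundant of 12 marker lists (fibroblast, endothelial, pericyte and smooth muscle, macrophage, neutrophil, mast cell, hepatocyte, adipocyte, gonadal and adrenal steroid cells, kidney tubule, epithelium, uterine stroma), with further genes where a sentence turns on them. Alternatives were the Wald test of DESeq2 1.42.0, its size factors, library size alone, no filter, a fit limited to the models compared, a replicate term, the study's threshold (unadjusted p under 0.05 and log2 fold change beyond 1) and leaving out each library. Floors of 3 counts cover counting error only. Results on some genes are not reported here.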

Additional observations from a re-analysis of the deposited data

How the results depend on the processing

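DESeq2 called 2575, 2880, 243, 4487 and 797 genes in the 5 comparisons, in the order TPMPik3ca, TPMPik3r1 and TPK against TPM, TPK against the PI3K models and TPMPik3r1 against TPMPik3ca, where edgeR called 553, 886, 0, 2287 and 0. Of the members other than Agt it called 2 (Agtr1a and Agtr2), 1 (Agtr2), 0, 2 (Agtr2 and Atp6ap2) and 1 (Agtr2). The study's threshold gave 3007, 3192, 838, 3996 and 1670 genes, and 2, 2, 0, 2 and 2 members. A fit of only the models compared called 1264, 53 and 1451 genes for TPMPik3ca and TPMPik3r1 against TPM and for TPK against the PI3K models, and 0 members in the last of these. Library size alone also called 0 members there and moved the median of all genes to -0.11 in TPK against TPM and -0.13 in TPK against the PI3K models.

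With a replicate block, 362 and 557 genes were called against TPM for TPMPik3ca and TPMPik3r1, 1661 in TPK against the PI3K models and 0 in the others. Members called were then 0 in the first (Agtr2, edgeR adjusted p = 0.0577) and 1 in the second (Anpep, edgeR adjusted p = 0.0461), and the call of Thop1 in TPK against the PI3K models was lost (edgeR adjusted p = 0.0532). The block also turned log2 fold changes near 0, of Anpep (0.12 in TPMPik3ca and 0.15 in TPK against TPM) and of Ace (-0.056 in TPMPik3r1 against TPMPik3ca). Same-numbered libraries did not deviate together (correlations of -0.07 to -0.01), so the number is taken as a name only.

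Leaving out a library gave 38 to 1643 genes for TPMPik3ca, 164 to 2059 for TPMPik3r1 and 0 to 0 for TPK against TPM, 541 to 3108 for TPK against the PI3K models, and 0 to 1379 for TPMPik3r1 against TPMPik3ca (1379 without TPMPik3r1 replicate 2), with 0 to 1 members called in TPMPik3ca against TPM and in TPK against the PI3K models and 0 to 0 in the others. With 1 library left in a model, that library is assumed to vary like the others. Log2 fold changes of uncalled members changed sign among these fits. In TPK against TPM they ranged from -0.52 to 1.29 for Ace, -0.95 to 0.79 for Agtr1a and -3.08 to 1.26 for Enpep (lowest without TPK replicate 1, highest without TPK replicate 2), from -2.43 to 0.27 for Agt (lowest without TPK replicate 1, highest without TPK replicate 2), from -0.035 to 2.08 for Agtr2 (lowest without TPK replicate 2) and from -0.63 to 1.004 for Anpep (highest without TPM replicate 2). In TPMPik3ca against TPM they ranged from -0.61 to 0.98 for Anpep and from -0.085 to 0.0032 for Atp6ap2. For Enpep they ranged from -0.44 to 3.21 in TPMPik3r1 against TPM and from -2.02 to 1.99 in TPMPik3r1 against TPMPik3ca, where Ace ranged from -1.79 to 0.82 (lowest without TPMPik3r1 replicate 2). The cause was not tested. With 2 libraries per model and few reads for Agtr1a and Agtr2 in TPM and TPK, small differences were not detectable at this depth.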

Other observations

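Mast cell proteases that can make angiotensin II without angiotensin-converting enzyme were named after their values were seen. Chymase (Cma1) was at 25.8 CPM in TPM replicate 1 and at 0.114 CPM in TPM replicate 2, and Mcpt4, a further chymase, at 31.0 and 0.114 CPM. TPMPik3ca had 4.88 and 3.34 CPM of Cma1, TPK had 6.80 and 0.264 CPM, and TPMPik3r1 had 0 and 0.0556 CPM. The mast cell tryptase gene Tpsab1 was at 55.03 and 0.286 CPM in TPM, 20.9 and 6.12 CPM in TPMPik3ca, 4.57 and 0.396 CPM in TPK and 0.0774 and 0.278 CPM in TPMPik3r1. The chymases were therefore high in the libraries with tryptase, and neither passed between models (edgeR adjusted p = 0.145 for Cma1 and 0.131 for Mcpt4 in TPMPik3r1 against TPM). The summed list of 6 mast cell markers, led by Hdc and Kit, which other cells also express, was at 48.8 to 190 CPM in all libraries.

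Other marker lists moved with single libraries. Fibroblast markers, led by Col1a1 and Col3a1, summed to 914 CPM in TPMPik3r1 replicate 1, where Agt was highest, and to 2614 to 17414 CPM in the other libraries. Neutrophil markers, led by S100a9 and S100a8, summed to 14.4 CPM in that library and to 291 to 2187 CPM elsewhere, and pericyte and smooth muscle markers, led by Acta2 and Notch3, to 119 CPM there and 305 to 1034 CPM elsewhere. Macrophage markers, led by Lyz2 and Cd14, summed to 274 CPM there. Kidney tubule markers, led by Lrp2 and Umod, summed to 13.4 CPM or less in every library. Uterine stroma markers, led by Esr1 and Hoxa10, summed to 46.2 to 98.3 CPM in TPM, 123 to 156 CPM in TPK and 197 to 263 CPM in the PI3K models. The leading genes did not share this order. Esr1 was at 18.2 and 56.2 CPM in TPMPik3ca and 142 and 133 CPM in TPMPik3r1. It was at 30.1 and 51.0 CPM in TPM and 81.7 and 149 CPM in TPK. Hoxa10 was at 105 and 28.8 CPM in TPMPik3ca and 88.7 and 2.33 CPM in TPMPik3r1. It was at 7.47 and 14.9 CPM in TPM and 6.74 and 1.25 CPM in TPK. Esr1 is also among the regulators of Agt transcription.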
